A study of Mus musculus with 6 samples.

Results

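EBF1 cells were set directly against Pax5 cells, with no Control array in the difference. The comparison used 4 of the 6 arrays of the series: the 2 arrays of EBF1 cells and the 2 arrays of Pax5 cells. Every group came from the same Ebf1-/- pre-pro-B cell line, which was cultured over an OP9 stromal layer in medium holding 10 ng/ml each of stem cell factor, flt3-ligand and IL-7. EBF1 cells received the MigY-EBF1 virus, Pax5 cells the MigR-Pax5 virus, and Control cells the MigR1 virus alone. Per the labels, cells were sorted and RNA was taken 24 hours after transduction, and 50 ng of total RNA went into each amplification. The EBF1 and Pax5 viruses carry different backbone names, so a difference between the factors and one between the backbones cannot be told apart. All groups, Control included, are Ebf1-/- and derive from a single cell line. Nothing in the labels says whether arrays 1 and 2 of a group came from separate transductions, so the p-values reflect nothing beyond the spread of these arrays, and that spread may be technical.

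EBF1 and Pax5 are transcription factors that act in sequence when a lymphoid progenitor becomes a B cell. EBF1 specifies the B lineage and switches on Pax5, and Pax5 then commits the cell, in part by repressing genes of other lineages. Among their shared tasks is the assembly of the pre-B cell receptor (pre-BCR): a heavy chain, a surrogate light chain made of VpreB and lambda5, the signalling chains Cd79a and Cd79b, and the kinases and adaptors that carry its signal. In a normal progenitor the effect of EBF1 and that of the Pax5 it induces come together. The direct comparison asks which genes differ between cells given EBF1 and cells given Pax5.

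Values are log2 RMA values, and each difference is the EBF1 mean minus the Pax5 mean, so a positive value is higher in EBF1 cells. A gene was called at a Benjamini-Hochberg adjusted p of 0.05 in limma. Within a group, the array-to-array difference had an SD over 15295 tested genes of 0.161 for EBF1, 0.263 for Pax5 and 0.152 for Control, against 0.357 to 0.415 between an EBF1 and a Pax5 array. The Pax5 arrays were the least alike: S100a8, which encodes a calgranulin of myeloid cells, was 4.41 on Pax5 array 1 and 5.75 on array 2. The lower quartile of an array lay between 2.72 and 2.87, and values near or below that carry little order. In bulk RNA of this kind, fewer cells of a type and less RNA per cell cannot be told apart.

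At this threshold 2128 genes (13.9% of those tested) differed: 1332 were higher in EBF1 cells (8.71%) and 796 higher in Pax5 cells (5.2%). Of these, 135 genes were at least 2-fold higher in EBF1 cells (0.883%) and 139 at least 2-fold higher in Pax5 cells (0.909%), together 1.79% of the genes. The 2-fold counts were 211 and 161 without Pax5 array 1, 122 and 154 without Pax5 array 2, and 123 and 157 after repeated quantile normalization. At 4-fold or more there were 25 and 13 genes, and at 8-fold or more 6 and 5. The median difference over all genes was 0.04. Arrays of the groups did not overlap for 8630 genes (56.4%), so a lack of overlap by itself says little with 2 arrays a group. The count of called genes fell to 1093 when only the 4 compared arrays entered the fit, and to 410 and 474 without EBF1 array 1 or 2. Without EBF1 array 1 the counts were 198 higher in EBF1 cells and 212 in Pax5 cells, and without EBF1 array 2 they were 249 and 225. The count was 3884 without Pax5 array 1. Of the 274 genes called with at least a 2-fold difference, 225 were called whichever array was left out. Of the 154 genes that the naming rule selects, 69 were. Leaving out an EBF1 array leaves that group with 1 array, which is then assumed to vary like the others, and a call described as lost without either EBF1 array was lost whichever of them was left out. The authors' deposited table lists 449 probe sets at a step-up p of 0.05 or less for this pair of groups, 238 of them higher in EBF1 cells and 211 higher in Pax5 cells.

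**Figure D1:**
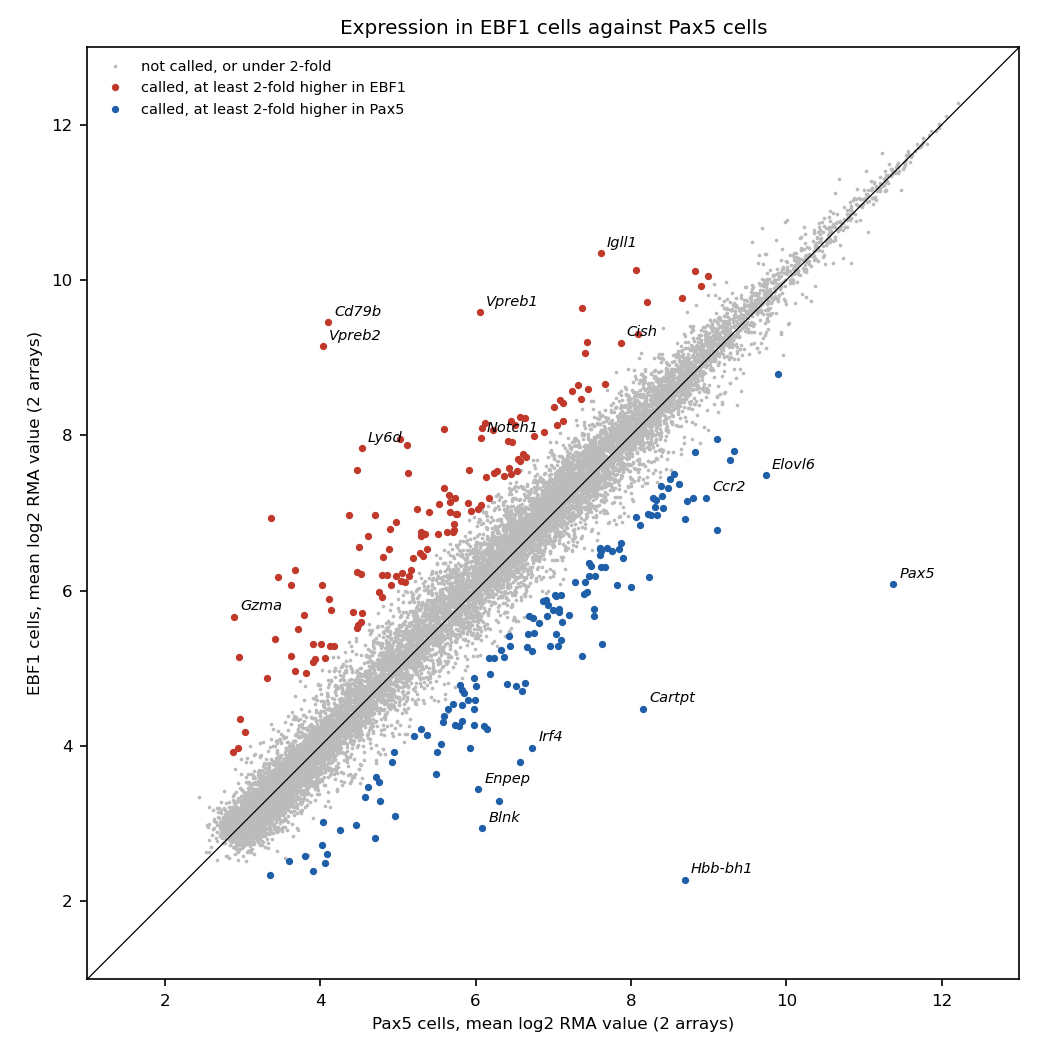
Mean log2 RMA value of each of the 15295 genes in EBF1 cells (vertical axis) against Pax5 cells (horizontal axis), 2 arrays each. Red and blue points are the 135 and 139 genes called with at least a 2-fold difference, and Cd79b, Vpreb2, Pax5 and Hbb-bh1 lie farthest from the line of equal values.

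The delivered factors were read next. Pax5 read 6.01 and 6.17 on the EBF1 arrays, 11.42 and 11.33 on the Pax5 arrays, and 4.93 and 5.10 on the Control arrays (probe set 10512669, chromosome 4). It was thus highest in the cells given Pax5, and the EBF1 arrays lay above both Control arrays by a log2 difference of 1.07 (SE 0.10, adjusted p = 0.0043). The difference between EBF1 and Pax5 cells was -5.29 (SE 0.10, adjusted p = 1.6e-05), which is 39.1-fold. Ebf1 read 9.88 and 9.96 on the EBF1 arrays and 8.92 and 8.87 on the Pax5 arrays (probe set 10375360, chromosome 11), a difference of 1.02 (SE 0.08, adjusted p = 0.0011). The Control arrays read 8.87 on both, at the level of the Pax5 arrays. A second and dimmer Ebf1 probe set (10375358) ran the other way, with 4.37 and 4.25 on the EBF1 arrays and 6.02 and 6.04 on the Pax5 arrays, a difference of -1.72 (SE 0.08, adjusted p = 0.0006 over all probe sets). Averaging the probe sets gives Ebf1 a difference of -0.35. The position of the probe sets in the gene, and so relative to its deletion or to the viral insert, was not given in the sources used here.

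The widest gaps higher in EBF1 cells, in Cd79b and Vpreb2, were in chains of the pre-B cell receptor. Of 7 tested genes of the surrogate light chain and receptor, 4 were higher in EBF1 cells, 1 was higher in Pax5 cells and 2 were not called. Of this list 71.4% was called, against 13.9% of all genes tested, and the median difference was 2.74. The counts higher in EBF1 cells and in Pax5 cells were the same with only the 4 arrays in the fit.

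Cd79b, a signalling chain of the receptor, read 9.45 and 9.46 on the EBF1 arrays and 4.43 and 3.77 on the Pax5 arrays (chromosome 11). The Pax5 arrays lay on either side of the Control arrays (4.11 and 3.98), and the groups did not overlap. The difference was 5.36 (SE 0.20, 95% interval 4.86 to 5.85, adjusted p = 0.0002), which is 41.0-fold. Its partner Cd79a stayed near the floor of the arrays, with 2.85 and 3.31 on the EBF1 arrays against 3.62 and 2.92 on the Pax5 arrays. These overlap, and the difference of -0.19 was not called (95% interval -0.80 to 0.42).

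Vpreb2 read 9.19 and 9.12 in EBF1 cells and 4.28 and 3.78 in Pax5 cells, a difference of 5.12 (SE 0.20, adjusted p = 0.0002) and 34.8-fold. Vpreb1 read 9.65 and 9.51 in EBF1 cells and 6.24 and 5.87 in Pax5 cells, a difference of 3.53 (SE 0.14, adjusted p = 0.0002) and 11.5-fold. Both encode VpreB proteins, the variable-like part of the surrogate light chain, and they are near-identical paralogs whose probes may read each other's RNA. Igll1, which encodes lambda5, the constant-like part, read 10.34 and 10.36 in EBF1 cells and 7.51 and 7.71 in Pax5 cells. It differed by 2.74 (SE 0.19, adjusted p = 0.00088), or 6.68-fold. Control arrays read 5.20 and 4.62 for Igll1 and 4.94 and 5.06 for Vpreb1, below both factor groups. Pax5 cells were above Control by 2.70 for Igll1 (adjusted p = 0.0023) and by 1.06 for Vpreb1 (adjusted p = 0.014), whereas their difference from Control was -0.11 for Vpreb2 and 0.05 for Cd79b.

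Vpreb3, a VpreB-like protein known to bind newly made immunoglobulin chains, had the opposite order. It read 3.93 and 3.35 in EBF1 cells and 5.46 and 5.52 in Pax5 cells, a difference of -1.85 (SE 0.19, adjusted p = 0.0029). The EBF1 arrays were at the level of Control (3.60 and 3.40) for this gene. The heavy chain gene Ighm read 3.04 and 2.91 in EBF1 cells and 2.37 and 3.94 in Pax5 cells, and its difference of -0.19 was not called.

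The promoters of Vpreb1 and Vpreb2 are shown because both genes are among the widest gaps and because their upstream sequences share a stretch. The lines give the 250 bases before each RefSeq transcription start (GRCm38.p6), on the strand of the gene and 5′ to 3′. Capitals mark the shared stretch of 106 bases, of which 104 are identical (98.1%). It ends at the start site in Vpreb1 (-106 to -1) and lies farther out in Vpreb2 (-250 to -145).
Vpreb1 (chr16:16869256-16869505, minus strand): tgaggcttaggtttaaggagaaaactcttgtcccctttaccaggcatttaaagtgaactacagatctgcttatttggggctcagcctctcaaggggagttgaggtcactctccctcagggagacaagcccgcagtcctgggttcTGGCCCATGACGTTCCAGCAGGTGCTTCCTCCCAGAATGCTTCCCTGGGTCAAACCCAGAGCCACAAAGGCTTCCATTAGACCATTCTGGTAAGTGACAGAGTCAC
Vpreb2 (chr16:17980315-17980564, plus strand): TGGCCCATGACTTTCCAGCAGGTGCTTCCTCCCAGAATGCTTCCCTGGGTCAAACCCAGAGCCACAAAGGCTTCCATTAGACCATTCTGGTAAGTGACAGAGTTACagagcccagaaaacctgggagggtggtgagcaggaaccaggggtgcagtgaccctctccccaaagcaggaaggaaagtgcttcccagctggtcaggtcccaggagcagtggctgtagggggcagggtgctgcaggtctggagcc

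The widest gap higher in Pax5 cells among the signalling genes was Blnk, the adaptor that links the kinase Syk to the calcium pathway of the receptor. It read 2.90 and 2.99 on the EBF1 arrays and 5.97 and 6.20 on the Pax5 arrays (chromosome 19), with Control at 2.73 and 2.80. The EBF1 arrays were at the level of Control, and their mean lay under the mean of their 30th percentiles, the level used to filter low genes. With each EBF1 array set at no less than that percentile, Blnk was at least 8.64-fold higher in Pax5 cells. The adjusted p of the difference without this bound was 0.00011. Cells given EBF1 had the higher Cd79b, Vpreb1, Vpreb2 and Igll1, and cells given Pax5 the higher Blnk and Vpreb3. These calls stood whichever array was left out.

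Of the 20 pre-BCR kinases and adaptors tested, 3 were higher in EBF1 cells and 4 in Pax5 cells (35.0% called, all genes 13.9%, median -0.10). Higher in Pax5 cells beside Blnk were the kinase genes Lyn and Btk among others. Lyn read 8.32 and 8.33 in EBF1 cells and 9.00 and 8.96 in Pax5 cells, a difference of -0.65 (SE 0.07, adjusted p = 0.004). Btk differed by -0.42 (adjusted p = 0.024). Higher in EBF1 cells were, among others, the phosphatase gene Ptpn6 (0.50) and the phospholipase gene Plcg2 (0.40), but with only the 4 arrays in the fit the count was 0 higher in EBF1 cells and 3 higher in Pax5 cells. Without EBF1 array 1 the calls of Lyn, Btk, Ptpn6 and Plcg2 were lost, and those of Btk, Ptpn6 and Plcg2 without EBF1 array 2 too. Among the 13 not called were the kinase genes Syk (-0.19) and Blk (0.46, adjusted p = 0.059).

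**Figure D2:**
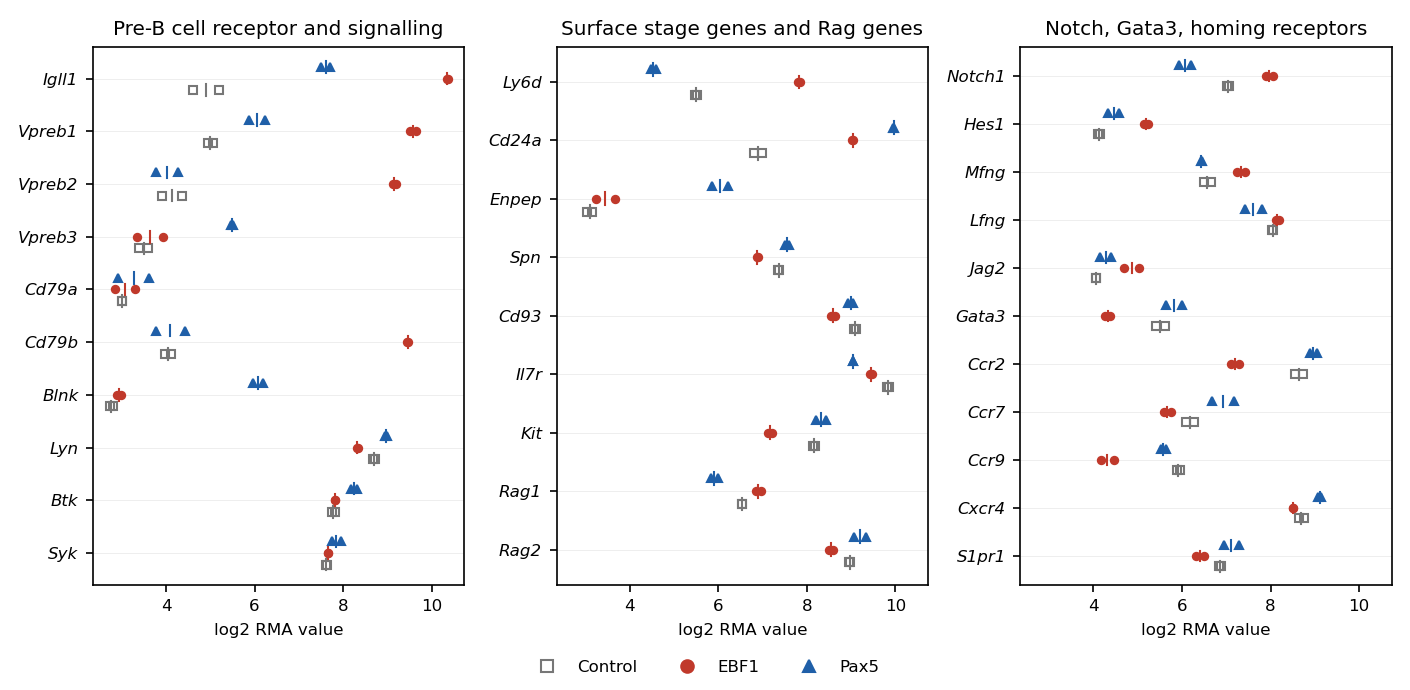
Log2 RMA value (horizontal axis) of selected genes on every array, in panels for the pre-B cell receptor and its signalling, surface stage and Rag genes, and Notch pathway, Gata3 and homing receptor genes. Squares are Control, circles EBF1 and triangles Pax5 arrays, with short lines for the means, and Cd79b lies near 9.5 in EBF1 cells alone while Blnk lies near 6 in Pax5 cells alone.

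Among 19 tested surface proteins of early B-lineage stages, 4 were higher in EBF1 cells and 7 in Pax5 cells (median -0.34). Of this list 57.9% was called, against 13.9% of all genes tested. Ly6d, a surface marker of lymphoid progenitors biased to the B lineage, read 7.86 and 7.81 in EBF1 cells and 4.47 and 4.59 in Pax5 cells. Control lay between them at 5.52 and 5.48, so the factors fell on opposite sides of it: EBF1 cells were above by 2.33 (adjusted p = 0.00024) and Pax5 cells differed by -0.97 (adjusted p = 0.0038). Directly compared, Ly6d was 9.85-fold higher in EBF1 cells (3.30, SE 0.08, adjusted p = 4.5e-05).

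Enpep, the aminopeptidase known as BP-1 that marks pre-B cells, had the opposite order. It read 3.66 and 3.24 in EBF1 cells and 5.85 and 6.22 in Pax5 cells, a difference of -2.59 (SE 0.18, adjusted p = 0.00085). Cd24a, the heat-stable antigen that appears on pro-B cells, was high with both factors: 9.04 and 9.02 in EBF1 cells, 9.97 and 9.94 in Pax5 cells, and 6.80 and 6.99 in Control. The Pax5 arrays lay above the EBF1 arrays by a log2 difference of -0.93 (SE 0.09, adjusted p = 0.0023). Il7r, the interleukin-7 receptor chain that supports growth of these cells, read 9.47 and 9.42 in EBF1 cells and 9.05 on both Pax5 arrays, below Control at 9.82 and 9.85. Its difference was 0.39 (SE 0.07, adjusted p = 0.02). With only the 4 arrays in the fit the counts of this list were 1 and 5, and Il7r, Cd9, Cd93 and Tspan13 were among those no longer called. The calls of Il7r, Cd93 and Tspan13 were also lost without either EBF1 array, and that of Cd9 without EBF1 array 1.

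The 3 label markers of the comparison, Cd79b, Ly6d and Blnk, did not overlap between the groups. They are among the leading genes, and a lack of overlap was part of how those were chosen. Of all genes tested, 56.4% did not overlap either. The line itself was read against other markers. Of the T-lineage markers, Lck read 6.69 to 7.12 and Gata3 4.26 to 6.002. Cd3e and Cd3d, which encode T cell receptor chains, stayed at 2.52 to 3.84 on all 6 arrays. Tcf7 and Bcl11b read 3.5 to 4.1. Siglech, a gene of plasmacytoid dendritic cells, read 8.01 to 9.11 and Mpo, a gene of myeloid progenitors, 6.29 to 7.41 on all 6 arrays. Most other markers of these cells were low. The dendritic genes Itgax and Zbtb46 read 3.68 to 4.57 (highest on the Pax5 arrays) and 3.60 to 3.91. The myeloid genes Csf1r, Elane and Lyz2 read 3.48 to 3.59, 2.91 to 3.43 and 2.63 to 3.01. The exception was the myeloid gene Itgam, which read 5.01 to 6.44 and was lowest on the EBF1 arrays. Cd79a stayed at 2.85 to 3.62.

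Some genes are known from earlier work as targets of a factor. Of 18 tested genes named in the literature as EBF1 targets, 6 were higher in EBF1 cells and 6 in Pax5 cells (median 0.05). The share called was 66.7%, against 13.9% of all genes tested. Higher in EBF1 cells were Cd79b, Vpreb1, Vpreb2, Igll1, Hes1 and Il7r. Against Control, EBF1 cells were called lower for Il7r (-0.39, adjusted p = 0.036) and higher for the rest of these. Those higher in Pax5 cells included Pax5 itself, Blnk, Vpreb3, Cd24a and Fcrla. Several of these are also known Pax5 targets, and the lists share members. EBF1 cells, too, were called above Control for Pax5 (1.07) and Cd24a (2.14). The calls of Hes1, Il7r and Fcrla were lost without EBF1 array 1 and likewise without EBF1 array 2.

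Of 19 tested genes named as activated by Pax5, 10 were higher in Pax5 cells and 0 in EBF1 cells (median -0.63). The share called was 52.6%, against 13.9% of all genes tested. The 10 included Blnk, Irf4, Enpep, Vpreb3, Tnfrsf13c, Rasgrp3, Nedd9, Rag2 and Bach2. Against Control, Pax5 cells were not called for Rasgrp3 (0.31), Rag2 (0.23) and Bach2 (0.38), and were called higher for the rest of the 10. For Rasgrp3 the EBF1 arrays, at 2.47 and 2.57, lay below Control by a difference of -0.77 (adjusted p = 0.033) and below the lower quartile. Tnfrsf13c, the receptor for the survival factor BAFF, read 5.79 and 5.37 in EBF1 cells and 7.18 and 6.46 in Pax5 cells, and Pax5 array 1 was the higher. It differed by -1.24 (SE 0.25, adjusted p = 0.026). Nedd9, an adhesion docking protein, read 7.11 and 7.24 in EBF1 cells and 7.98 and 8.04 in Pax5 cells (-0.83, SE 0.10, adjusted p = 0.0045). The count was 8 with only the 4 arrays in the fit, and 5 and 6 without EBF1 array 1 or 2. Without either EBF1 array the calls of Tnfrsf13c, Rasgrp3, Rag2 and Bach2 were lost, and that of Nedd9 without EBF1 array 1. Those not called included Cd79a, Cd72 (-0.34), Irf8 (-0.26), Id3 (0.03), Lef1 (0.01) and Spib (0.46).

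Of 22 tested genes named as repressed by Pax5, 8 were higher in EBF1 cells and 3 in Pax5 cells (median 0.22). The share called was 50.0%, against 13.9% of all genes tested. Notch1, the receptor that drives T cell fate, read 8.04 and 7.89 in EBF1 cells and 6.20 and 5.93 in Pax5 cells. Control read 7.06 and 7.02, between the groups. The difference was 1.90 (SE 0.11, adjusted p = 0.00064). Cd33, a myeloid lectin, read 6.13 and 6.26 in EBF1 cells and 4.90 and 4.81 in Pax5 cells (1.34, SE 0.08, adjusted p = 0.0007). Control read 5.17 and 5.13 for Cd33. EBF1 cells differed from Control by 1.05 (adjusted p = 0.0029) and Pax5 cells by -0.29 (adjusted p = 0.13). Fcer1g, a signalling chain of Fc receptors, read 10.79 and 10.69 in EBF1 cells and 10.00 and 9.97 in Pax5 cells (0.75, SE 0.08, adjusted p = 0.003). The other 5 higher in EBF1 cells were Ccl9, Ly6a, Grap2, Xbp1 and Emb, at 0.36 to 0.82. Against Control, Pax5 cells were called lower for Notch1, Fcer1g, Xbp1 and Emb, but not for Cd33, Ccl9, Ly6a and Grap2.

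The 3 members of this list that were higher in Pax5 cells were Ccr2, Il2rb and Itga4. Ccr2, a chemokine receptor of myeloid and progenitor cells, read 7.29 and 7.11 in EBF1 cells and 9.05 and 8.88 in Pax5 cells, with Control at 8.55 and 8.73. EBF1 cells stood apart for this gene, with a difference from Control of -1.44 (adjusted p = 0.0024) against 0.32 (adjusted p = 0.18) for Pax5 cells. The direct difference was -1.77 (SE 0.11, adjusted p = 0.00068). With only the 4 arrays in the fit, 5 of the list were higher in EBF1 cells and 3 in Pax5 cells. The calls of Ccl9, Ly6a, Grap2, Xbp1, Emb and Itga4 were lost without either EBF1 array, and that of Il2rb without EBF1 array 2.

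**Figure D3:**
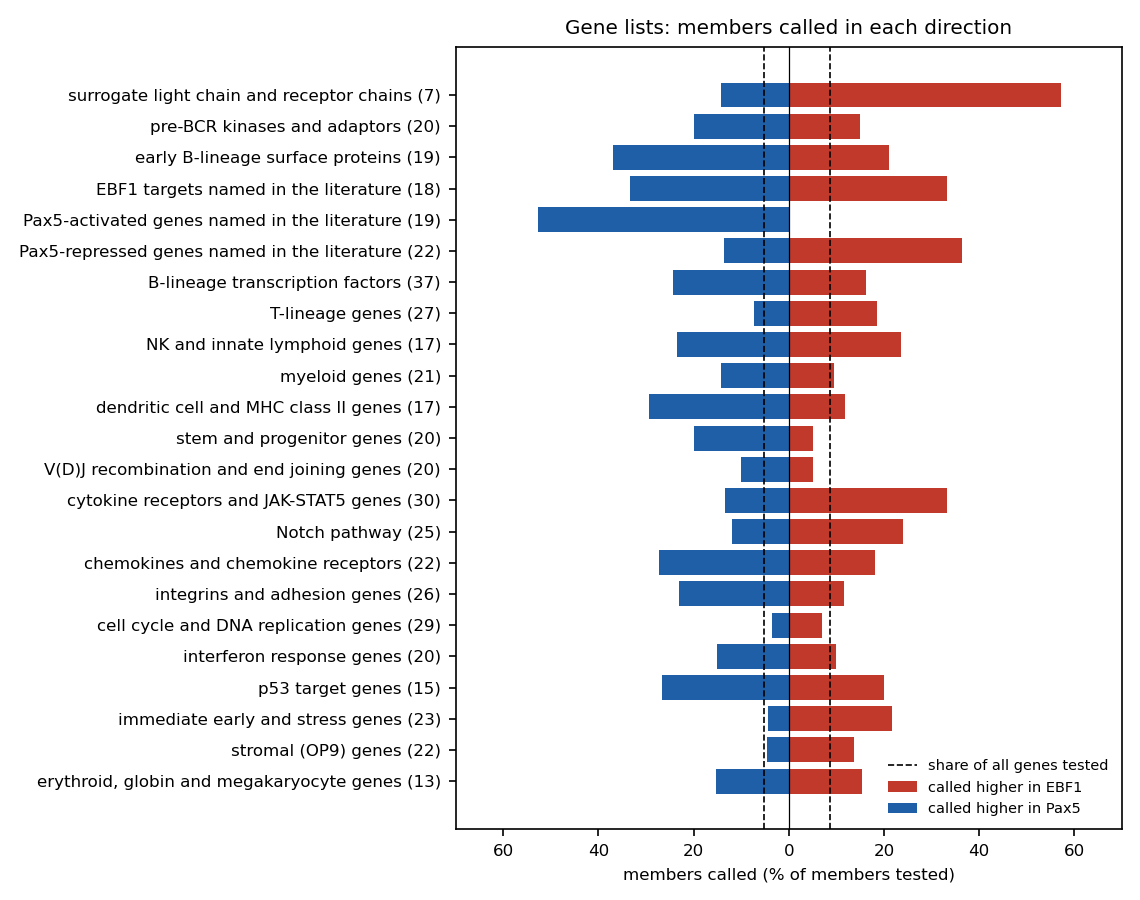
Share of each list's tested members (number in brackets) called higher in EBF1 cells (red, to the right) and higher in Pax5 cells (blue, to the left), with dashed lines at 8.71% and 5.2%, the shares of all genes tested. The surrogate light chain and receptor list reaches farthest to the right and the Pax5-activated list farthest to the left.

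The B-lineage transcription factors split in both directions. Of 37 tested, 6 were higher in EBF1 cells and 9 in Pax5 cells, counting Ebf1 and Pax5 themselves (median -0.04). Of this list 40.5% was called, against 13.9% of all genes tested. Irf4, a factor that works with PU.1 at immunoglobulin light chain enhancers, read 4.17 and 3.79 in EBF1 cells and 6.71 and 6.75 in Pax5 cells. Control read 3.49 and 3.53, and the difference was -2.75 (SE 0.13, adjusted p = 0.00029), or 6.72-fold. Bhlhe41, a repressor of the basic helix-loop-helix family, read 4.42 and 4.13 in EBF1 cells and 6.17 and 5.79 in Pax5 cells (-1.71, SE 0.16, adjusted p = 0.0021). Ets1 read 5.67 and 5.80 in EBF1 cells and 6.99 and 7.15 in Pax5 cells (-1.34, SE 0.09, adjusted p = 0.00088), with Control at 5.63 on both arrays. Runx1, a factor of blood stem cells and of B cell progenitors, differed by -0.92 (SE 0.08, adjusted p = 0.0015). Against Control, EBF1 cells were called lower for Bhlhe41 (-1.19, adjusted p = 0.012) and for Runx1 (-0.58, adjusted p = 0.012). Pax5 cells were not called against Control for Bhlhe41 (0.51, adjusted p = 0.15) or Runx1 (0.34, adjusted p = 0.07).

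On the other side, Pou2f2, which encodes the octamer factor Oct-2, read 6.58 and 6.49 in EBF1 cells and 4.95 and 4.83 in Pax5 cells. The Pax5 arrays were at the level of Control (4.96 and 4.77), and the difference was 1.65 (SE 0.10, adjusted p = 0.00064). Bcl11a, a zinc finger factor needed for B cell development, read 8.88 and 8.74 in EBF1 cells and 7.84 and 7.78 in Pax5 cells (1.00, SE 0.09, adjusted p = 0.0019). Some general factors of the B lineage were close in level. Tcf3, which encodes the E2A proteins, differed by 0.02, Ikzf1 by -0.04, Foxo1 by -0.10 and Spi1 by 0.01, and none of these was called. Foxo1 read 3.54 to 3.83 on all 6 arrays, below the array medians of 4.06 to 4.17. Tcf12 (0.36, adjusted p = 0.027) and Myb (-0.38, adjusted p = 0.026) were called, but not with only the 4 arrays in the fit. With only the 4 arrays in the fit the counts of this list were 3 and 6.

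The cytokine receptor and JAK-STAT5 list had 10 of 30 members higher in EBF1 cells and 4 higher in Pax5 cells (median 0.21). Of this list 46.7% was called, against 13.9% of all genes tested. STAT5 carries the signal of the interleukin-7 receptor, and Cish, Pim1 and Ccnd2 are known to respond to it. Other members of the list were not called, among them Socs2 (0.08), Bcl2 (-0.27), Socs1 (0.39) and Pim3 (0.40). A second and dimmer Bcl2 probe set differed by -0.65 (adjusted p = 0.0099 over all probe sets). Cish, a feedback inhibitor, read 9.11 and 9.27 in EBF1 cells and 7.91 and 7.82 in Pax5 cells, with Control at 8.14 and 8.13. It differed by 1.33 (SE 0.09, adjusted p = 0.00076). The kinase genes Pim2 and Pim1 differed by 1.08 (adjusted p = 0.014) and 0.87 (adjusted p = 0.0041), and the growth regulator Myc by 0.64 (adjusted p = 0.0061). Ccnd2, which encodes cyclin D2, read 10.08 and 10.02 in EBF1 cells and 8.97 and 9.01 in Pax5 cells (1.06, SE 0.07, adjusted p = 0.00093), although a second Ccnd2 probe set differed by -0.07.

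The 4 higher in Pax5 cells included both a death and a survival gene of the Bcl-2 family. Bcl2l11, which encodes the death-promoting protein Bim, read 7.26 and 7.17 in EBF1 cells and 8.32 and 8.47 in Pax5 cells (-1.18, SE 0.09, adjusted p = 0.0011). Control lay between at 7.68 and 7.73. Bcl2l1, which encodes the survival protein Bcl-xL, differed by -0.66 (adjusted p = 0.012). Kit, the stem cell factor receptor, read 7.13 and 7.21 in EBF1 cells and 8.21 and 8.42 in Pax5 cells (-1.15, SE 0.10, adjusted p = 0.0016), with Control at the Pax5 level (8.18 and 8.14). The receptor partners Jak1 (-0.08), Jak3 (0.13), Stat5a (0.23) and Stat5b (-0.18) were not called. The counts were 7 and 4 with only the 4 arrays in the fit. Without either EBF1 array the calls of Pim2 and Bcl2l1 were lost, and that of Myc without EBF1 array 1.

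**Figure D4:**
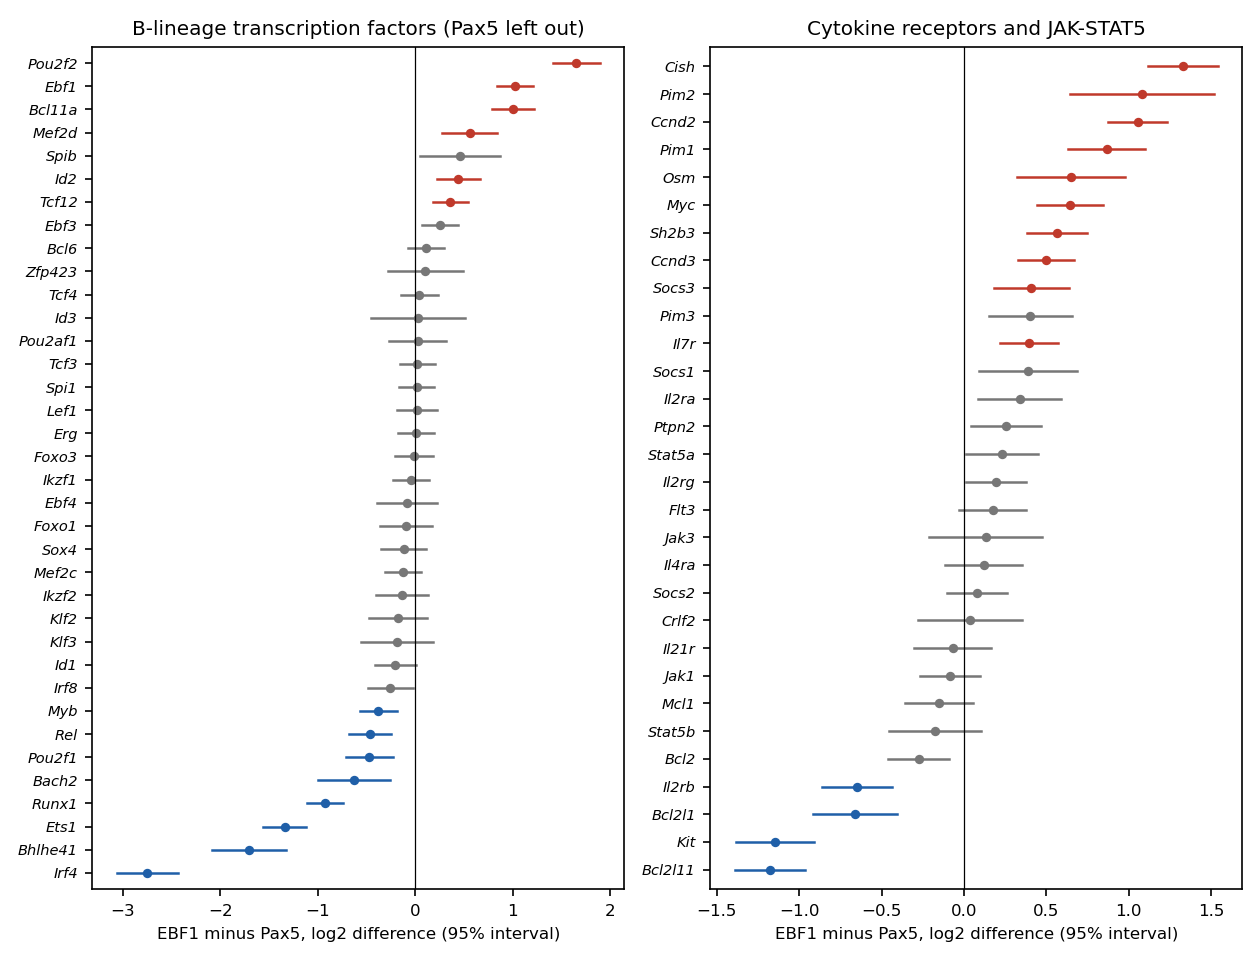
Difference in log2 RMA value, EBF1 minus Pax5 (horizontal axis), with its 95% interval from limma, for the B-lineage transcription factors other than Pax5 and for the cytokine receptor and JAK-STAT5 genes. Red and blue mark genes called higher in EBF1 cells and in Pax5 cells, grey the rest, with Irf4 at -2.75 and Pou2f2 at 1.65 at the ends of the left panel.

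Genes of the Notch pathway, which directs progenitors to the T lineage, were called in both directions. Of 25 tested, 6 were higher in EBF1 cells and 3 in Pax5 cells (36.0% called against 13.9% of all genes tested, median 0.09), and with only the 4 arrays in the fit the counts were 3 and 0. Beside Notch1, those higher in EBF1 cells included the target gene Hes1, which read 5.23 and 5.14 in EBF1 cells and 4.58 and 4.34 in Pax5 cells (0.73, SE 0.10, adjusted p = 0.0081). The glycosyltransferase gene Mfng, whose product modifies Notch receptors, differed by 0.89 (SE 0.10, adjusted p = 0.0039). The Hes1 call was lost without either EBF1 array. Other known Notch targets were not called, among them Nrarp (0.43) and Dtx1 (-0.05).

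The T-lineage genes gave 5 of 27 higher in EBF1 cells and 2 higher in Pax5 cells (25.9% called, all genes 13.9%, median 0.12). Gata3, a factor of T and innate lymphoid cells, read 4.26 and 4.38 in EBF1 cells, 5.65 and 6.002 in Pax5 cells and 5.41 and 5.61 in Control. EBF1 cells were lower than both other groups, and the direct difference was -1.51 (SE 0.14, adjusted p = 0.0022). Cd7, an early T and natural killer surface protein, differed by -1.06 (SE 0.12, adjusted p = 0.004). Lat, an adaptor of T cell receptor signalling, differed by 0.84 (SE 0.09, adjusted p = 0.0041). Without Pax5 array 1 the counts were 7 and 5.

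Among 17 natural killer and innate lymphoid genes, 4 were higher in each direction (47.1% called, all genes 13.9%, median -0.05). Gzma, a granzyme, read 5.43 and 5.90 in EBF1 cells and 2.51 and 3.26 in Pax5 cells, where it lay near or below the lower quartile. With each Pax5 array set at no less than its 30th percentile, Gzma was at least 5.84-fold higher in EBF1 cells. The adjusted p of the difference without this bound was 0.0025. Nkg7, a gene of cytotoxic granules, had the opposite order with 7.71 and 7.64 in EBF1 cells and 9.28 on both Pax5 arrays (-1.60, SE 0.07, adjusted p = 0.00027). Ifng, which encodes interferon gamma, was higher in Pax5 cells too (-1.24, SE 0.14, adjusted p = 0.004), as was Klrb1c (-1.41, adjusted p = 0.023), which was not called with only the 4 arrays in the fit or without either EBF1 array. The killer cell genes Ncr1 and Gzmb were below the filter, at 2.12 to 2.43 on all 6 arrays.

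The myeloid list had 2 of 21 members higher in EBF1 cells and 3 in Pax5 cells (23.8% called against 13.9% of all genes tested, median -0.04). Mpo, the myeloperoxidase gene, read 6.98 and 7.12 in EBF1 cells and 6.29 and 6.44 in Pax5 cells (0.68, SE 0.09, adjusted p = 0.0069). Itgam, the integrin chain of myeloid cells, read 5.01 and 5.45 in EBF1 cells and 6.44 and 6.21 in Pax5 cells (-1.09, SE 0.16, adjusted p = 0.0091), with Control at the Pax5 level. The Mpo call was lost without EBF1 array 2. S100a8 (-1.03) and S100a9 (-1.21) differed at least 2-fold but were not called, since Pax5 array 2 lay far above Pax5 array 1 for both. Lyz2, which encodes lysozyme of macrophages, stayed below the filter at 2.63 to 3.01.

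Of 17 dendritic cell and MHC class II genes, 2 were higher in EBF1 cells and 5 in Pax5 cells (median -0.05). Of this list 41.2% was called, against 13.9% of all genes tested. The counts were 0 and 4 with only the 4 arrays in the fit. Zeb2, a repressor needed by plasmacytoid dendritic cells, read 5.33 and 5.25 in EBF1 cells and 6.96 and 7.15 in Pax5 cells, on either side of Control at 5.92 and 5.94. It differed by -1.77 (SE 0.09, adjusted p = 0.00042). Of 20 stem and progenitor genes, 1 was higher in EBF1 cells, 4 were higher in Pax5 cells and 15 were not called (median -0.13). Of all genes tested 13.9% was called, 8.71% higher in EBF1 cells and 5.2% higher in Pax5 cells. With only the 4 arrays in the fit the stem and progenitor counts were 0 and 3. Hhex, a homeobox factor of lymphoid progenitors, differed by -0.999 (SE 0.09, adjusted p = 0.0018), and Cd34, lost without either EBF1 array, by -0.44 (adjusted p = 0.016). Flt3, the receptor for flt3-ligand and a gene named as repressed by Pax5, was not called (0.17). It differed from Control by -0.50 in Pax5 cells (adjusted p = 0.031) and by -0.33 in EBF1 cells (adjusted p = 0.09).

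Homing receptors stood among the genes higher in Pax5 cells. Of 22 chemokine and homing receptor genes, 4 were higher in EBF1 cells and 6 in Pax5 cells (45.5% called, all genes 13.9%, median -0.05). Ccr9, the receptor that guides progenitors to thymus and gut, read 4.17 and 4.46 in EBF1 cells and 5.64 and 5.52 in Pax5 cells (-1.27, SE 0.12, adjusted p = 0.0021). Control at 5.96 and 5.88 was closer to the Pax5 arrays. Ccr7 read 5.76 and 5.58 in EBF1 cells and 7.17 and 6.67 in Pax5 cells (-1.25, SE 0.17, adjusted p = 0.008). Cxcr4, which holds B cell progenitors in bone marrow, differed by -0.60 (adjusted p = 0.0065) and S1pr1, which guides exit from tissues, by -0.72 (adjusted p = 0.017). Without either EBF1 array the calls of Ccr7, Cxcr4 and S1pr1 were lost.

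The 4 chemokine list members higher in EBF1 cells were the ligand genes Xcl1 (0.88), Ccl9 (0.82) and Ccl5 (0.69) and the receptor gene Cxcr3 (0.65). The 6 higher in Pax5 cells were receptors: Ccr2, Ccr9, Ccr7, S1pr1, Gpr183 and Cxcr4. Of 26 integrin and adhesion genes, 3 were higher in EBF1 cells and 6 in Pax5 cells (34.6% called, all genes 13.9%, median -0.09). With only the 4 arrays in the fit the counts were 1 and 5. Itgb3, an integrin chain of platelets and progenitors, was among the 3 higher in EBF1 cells (0.93, adjusted p = 0.011). Without either EBF1 array the calls of Itgb3, Ccl9, Ccl5, Cxcr3 and Gpr183 were lost.

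The recombination genes Rag1 and Rag2, which together make the enzyme that cuts immunoglobulin genes, had opposite orders. Rag1 read 6.84 and 6.97 in EBF1 cells and 5.83 and 5.99 in Pax5 cells, with Control between at 6.53 and 6.54. It differed by 1.00 (SE 0.09, adjusted p = 0.0021). Rag2 read 8.51 and 8.59 in EBF1 cells and 9.35 and 9.06 in Pax5 cells (-0.65, SE 0.11, adjusted p = 0.015), and its other probe set differed by -0.57. The Rag2 call was lost without either EBF1 array. Of 20 recombination and end joining genes, 1 was higher in EBF1 cells, 2 were higher in Pax5 cells and 17 were not called (median -0.02). Of all genes tested 13.9% was called, 8.71% higher in EBF1 cells and 5.2% higher in Pax5 cells. Beside Rag1 and Rag2, the other gene called was Xrcc6, which encodes the Ku70 end-binding protein (-0.84, SE 0.07, adjusted p = 0.0018). Dntt, which encodes terminal transferase, was not called (-0.48, adjusted p = 0.054).

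Of 29 cell cycle and replication genes, 2 were higher in EBF1 cells and 1 in Pax5 cells (10.3% called against 13.9% of all genes tested, median 0.05). The 3 were the replication genes Mcm5 (0.51) and Mcm3 (0.40) and the checkpoint gene Bub1 (-0.35), and with only the 4 arrays in the fit 0 were called in either direction. All 3 calls were lost without either EBF1 array. Of 15 p53 targets, 3 were higher in EBF1 cells and 4 in Pax5 cells (46.7% called, all genes 13.9%, median 0.15). The counts were 2 and 2 with only the 4 arrays. Phlda3, a p53 target that restrains Akt, read 7.04 and 7.18 in EBF1 cells and 5.47 and 5.58 in Pax5 cells (1.59, SE 0.09, adjusted p = 0.0005). Control lay between at 6.23 and 6.29.

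Of 20 interferon response genes, 2 were higher in EBF1 cells, 3 were higher in Pax5 cells and 15 were not called (median -0.11). Of all genes tested 13.9% was called, 8.71% higher in EBF1 cells and 5.2% higher in Pax5 cells. With only the 4 arrays in the fit the interferon response counts were 1 and 3. The antiviral paralogs Mx1 and Mx2 had opposite orders, at 0.57 (adjusted p = 0.012) and -1.83 (SE 0.10, adjusted p = 0.00048). Mx2 read 4.93 and 4.69 in EBF1 cells and 6.63 and 6.65 in Pax5 cells, while Isg15 (0.01) was not called, and the Mx1 call was lost without either EBF1 array. Of 23 immediate early and stress genes, 5 were higher in EBF1 cells and 1 in Pax5 cells (26.1% called, all genes 13.9%, median 0.21). With only the 4 arrays the counts were 3 and 1. The MAP kinase phosphatase genes had opposite orders: Dusp5 differed by 1.16 (SE 0.11, adjusted p = 0.0025) and Dusp6 by -1.52 (SE 0.09, adjusted p = 0.00056).

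The remaining leading genes are in none of the lists. Higher in EBF1 cells were 9330175E14Rik (6.97 and 6.90 against 3.17 and 3.54, 11.9-fold), a RIKEN transcript, and Bhlha15 (7.51 and 7.59 against 4.36 and 4.59, 8.44-fold), which encodes the secretory cell factor Mist1. H19, an imprinted noncoding RNA, read 7.78 and 7.96 in EBF1 cells and 4.94 and 5.29 in Pax5 cells, a 6.76-fold difference. The other 6 were Cracdl, 4731417B20Rik, the adhesion gene Flrt1, the troponin gene Tnnt2, the actin-linking gene Parvb and the transglutaminase gene Tgm2, at 5.47-fold to 7.56-fold. Of these, Parvb, Cracdl and Tgm2 read lower in Pax5 cells than on either Control array, and Pax5 cells differed from Control by -0.52 for Parvb (adjusted p = 0.021) and -0.72 for Cracdl (adjusted p = 0.0089), but were not called for Tgm2.

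Higher in Pax5 cells, Cartpt, a neuropeptide precursor gene, read 8.02 and 8.30 against 4.58 and 4.38 in EBF1 cells, a 12.8-fold difference. Cpn1, which encodes the catalytic subunit of carboxypeptidase N, read 6.19 and 6.41 against 3.25 and 3.34, an 8.05-fold difference. Pgf, a growth factor of the VEGF family, read 6.55 and 6.58 against 3.86 and 3.74, a 6.81-fold difference. EBF1 cells were at the level of Control for Cartpt and Cpn1, with differences from Control of -0.12 and 0.22, and at -0.32 for Pgf, none of them called. The other 7 were Ptgr1, the anion transporter gene Slc26a11, the fatty acid elongase gene Elovl6, the syncytin gene Syna, the lipid flippase gene Atp8a1, the ubiquitin ligase gene Mylip and Rasl10a, at 3.85-fold to 4.98-fold. All 30 leading genes were called under each alternative tried in the limma fit. Of the 30, 9 had a step-up p above 0.05 in the authors' deposited table, the highest at 0.102, and the 9 included Gzma, H19, Igll1, Enpep and Tgm2.

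**Figure D5:**
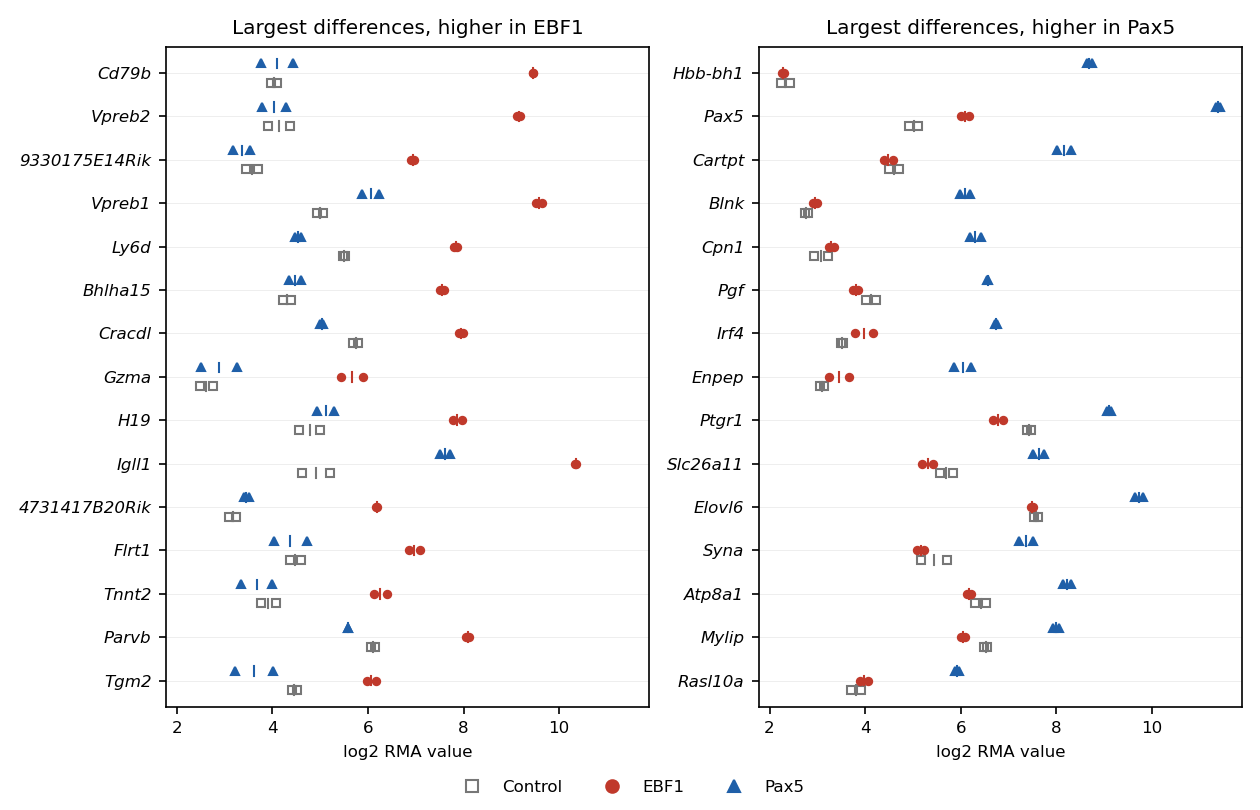
Log2 RMA value (horizontal axis) on every array for the 15 genes with the largest called differences in each direction, higher in EBF1 cells on the left and higher in Pax5 cells on the right. Squares are Control, circles EBF1 and triangles Pax5 arrays, with short lines for the group means, and the EBF1 and Pax5 arrays do not overlap for any of the 30, which was part of how they were chosen.

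The widest gap in the fit was in a globin gene. Hbb-bh1, an embryonic beta-like globin, read 2.26 and 2.30 in EBF1 cells and 8.63 and 8.75 in Pax5 cells (chromosome 7), with Control at 2.24 and 2.42. EBF1 and Control arrays lay below the lower quartile, so only a bound can be given. Against the 30th percentile of the EBF1 arrays Hbb-bh1 was at least 53.5-fold higher in Pax5 cells. The adjusted p of the difference without this bound was 6.3e-06. Hbb-bh1 passed the filter on low values through the 2 Pax5 arrays alone. Hbb-y, another embryonic globin, read 2.56 and 2.43 in EBF1 cells and 3.93 and 4.18 in Pax5 cells. By the same bound Hbb-y was at least 2.16-fold higher in Pax5 cells (adjusted p = 0.001 for the difference without the bound). These globins are close in sequence, so the probe sets may read each other's RNA. The alpha-like embryonic gene Hba-x was not called (0.21). Of 13 tested erythroid, globin and megakaryocyte genes, 2 were higher in each direction (30.8% called, all genes 13.9%, median 0.08). With only the 4 arrays 1 was higher in EBF1 cells and 2 in Pax5 cells. Beside Hbb-bh1, the red cell genes Klf1 (0.08), Gata1 (0.08), Alas2 (-0.20) and Slc4a1 (-0.10) were not called. Gp9, a platelet membrane protein, was higher in EBF1 cells, with 6.46 and 6.41 against 4.89 and 4.73 (1.63, SE 0.09, adjusted p = 0.00043).

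Since the cells grew on OP9 stroma, stromal genes were read on every array. The mean of the 6 defining markers (Col1a1, Col1a2, Col3a1, Sparc, Pdgfra and Pdgfrb) was 5.06 and 5.17 on the EBF1 arrays, 5.00 and 5.23 on the Pax5 arrays and 5.02 and 4.93 on the Control arrays, and none of the 6 was called. Col1a2 read 6.05 on Pax5 array 2 and 5.01 to 5.35 on the other arrays. Of 22 stromal genes, 3 were higher in EBF1 cells and 1 in Pax5 cells (18.2% called, all genes 13.9%, median 0.11). With only the 4 arrays in the fit the counts were 0 and 1. The 1 higher in Pax5 cells was Igfbp4, with 7.02 and 6.94 in EBF1 cells and 8.23 and 8.45 in Pax5 cells (-1.36, SE 0.10, adjusted p = 0.00097). The part of stromal RNA in the differences was not tested.

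The upstream sequences of the 30 leading genes were searched for a core of the EBF motif (CCCNNGGGA, or TCCCNNGGG on the other strand) and for a core of the Pax5 motif (GCGTGAC or GTCACGC), where N is any base. Windows ran from 250 bases before to 50 after each RefSeq start (GRCm38.p6), and of all 32851 windows 6.56% held the first core and 2.09% the second. Of the genes higher in EBF1 cells, 9 had a window and 0 held either core. Of the genes higher in Pax5 cells, 13 had a window: 2 held the EBF core, Cartpt and Cpn1, and 1 held the Pax5 core, Pgf. Both Vpreb windows printed above held neither. The windows with a match are shown up to the start site with the match in capitals, at -235 in Cartpt, -108 in Cpn1 and -126 in Pgf. A match is a description of the letters and not a binding site.
Cartpt (chr13:99900684-99900933, minus strand): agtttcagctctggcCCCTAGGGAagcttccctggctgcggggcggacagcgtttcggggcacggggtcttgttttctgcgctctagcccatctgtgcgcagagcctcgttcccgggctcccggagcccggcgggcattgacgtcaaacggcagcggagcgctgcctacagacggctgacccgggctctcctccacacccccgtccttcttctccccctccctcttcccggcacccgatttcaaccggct
Cpn1 (chr19:43986521-43986770, minus strand): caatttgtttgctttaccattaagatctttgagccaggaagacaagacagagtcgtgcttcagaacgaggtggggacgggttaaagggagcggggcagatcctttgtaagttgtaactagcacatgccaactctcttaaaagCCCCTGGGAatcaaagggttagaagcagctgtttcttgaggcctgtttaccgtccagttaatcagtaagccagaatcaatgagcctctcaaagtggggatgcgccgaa
Pgf (chr12:85177314-85177563, minus strand): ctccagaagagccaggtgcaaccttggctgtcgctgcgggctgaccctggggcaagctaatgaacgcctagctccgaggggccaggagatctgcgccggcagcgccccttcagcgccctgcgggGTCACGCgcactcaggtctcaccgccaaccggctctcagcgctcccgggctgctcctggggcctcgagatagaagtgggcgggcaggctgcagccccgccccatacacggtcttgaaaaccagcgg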

How the data were processed

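Expression was measured on 6 Affymetrix arrays, 2 per group. RMA and Partek 6.5 are named in the submitters' processing notes. RMA options, probe annotation and build were not given in the sources used here. The deposited values are log2 values per probe set. Per the file headers, a second deposited table adds the authors' p-values, step-up p-values and ratio of group means for each pair of groups. It holds 28350 probe sets, and its log2 values were compared with those of the other table for probe sets found in both. Cut to whole log2 units, the largest difference was 0, so smaller differences would not have been seen.

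Symbols came from the deposited annotation, with newer names from RefSeq (GRCm38.p6) for 2532 probe sets; 22969 probe sets had 1 symbol, 2285 several and 3096 none. The brightest probe set stood for a gene. A gene was tested above the 30th percentile on at least 2 arrays. The number of arrays limits the precision.

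Tests were two-sided and ran in R 4.3.3 with lmFit and eBayes of limma 3.58.1. The model held a mean for each of 3 groups (3 residual and 3.18 prior degrees of freedom), so Control arrays entered the spread and not the difference. P-values were adjusted over all 15295 genes. Where a group's mean lay under its arrays' 30th percentiles, a fold was given as a bound against that level, since the RMA values carry no detection call. The bound itself was not tested. Named genes are the 15 largest called differences in each direction without overlap, called members of the 23 gene lists, Ebf1, Pax5, listed genes at least 2-fold apart but not called, and stated members not called. Lists hold 474 genes (414 tested, 68 in more than 1 list) and have no test of their own. Members and lists were chosen with earlier results of these data known. Alternatives covered the arrays fitted, replicate block, filter, normalization, probe set summary, eBayes options and each array left out. Some genes counted in the lists are not reported here by name.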

Additional observations from a re-analysis of the deposited data

Results flagged for a closer look

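The report's gene tests leave out probe sets with no symbol or with several. Of 3236 such probe sets tested, 42 (1.3%) were called with at least a 2-fold difference, 10 higher in EBF1 cells and 32 higher in Pax5 cells. Of the 42, 24 have no symbol and 18 have several.

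A probe set shared by the adult beta globin genes Hbb-b1 and Hbb-b2 read 7.50 and 7.64 in EBF1 cells and 10.47 and 10.50 in Pax5 cells, with Control at 7.98 and 7.97. Its difference was -2.92, on the same side as Hbb-bh1.

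A probe set shared by Tubb3, a neuronal tubulin gene, and Mc1r, the melanocortin receptor gene, read 7.92 and 7.70 in EBF1 cells and 4.19 and 4.34 in Pax5 cells, with Control at 4.78 and 3.98. Its difference was 3.54. Which of the genes gives the signal was not tested. No group holds enough arrays for a test of outlying arrays.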

How the results depend on the processing

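The count of called genes (2128) depended on the arrays that set the spread. It was 1093 with only the EBF1 and Pax5 arrays in the fit and 3369 with eBayes using a trend and robust settings. Leaving out 1 array gave 410 (EBF1 array 1) to 3884 (Pax5 array 1), and the 410 comes with 1 array fewer in the group. List members called (135 in the full fit) fell to 86 with only the 4 arrays, and leaving out 1 array gave 53 to 169. The other alternatives (filter, quantile normalization, probe set summary, every probe set as a feature) kept both counts within 1.5 times. Of the 2128 calls, 355 stood whichever array was left out and 343 under every alternative. Of the 274 with at least a 2-fold difference, 216 stood under every alternative, 105 higher in EBF1 cells and 111 higher in Pax5 cells. After repeated quantile normalization 1067 genes were higher in EBF1 cells and 941 in Pax5 cells, against 1332 and 796. Ebf1 turned from 1.02 to -0.35 (adjusted p = 0.0255) when its probe sets were averaged, because they run opposite ways.

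With the replicate number as a block, 1741 genes were called, 1083 higher in EBF1 cells and 658 in Pax5 cells. Deviations of same-numbered arrays correlated at 0.009, 0.007 and -0.012 between the groups, so no shared deviation was seen. Whether same-numbered arrays were made together cannot be told from these values, and the labels do not say. Signals near the lower quartile of an array limit what can be said of low genes such as Gzma in Pax5 cells and Hbb-bh1 or Blnk in EBF1 cells. With 2 arrays a group each SE has few degrees of freedom.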

Other observations

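Other probe sets that carry several symbols read as follows. A probe set of Eps8l2 and B230206H07Rik was higher in EBF1 cells by 2.75 (6.91 and 6.67 against 4.35 and 3.73). A probe set of Gng13, a G protein gamma subunit gene, and Chtf18 was higher in EBF1 cells by 2.10 (6.10 on both arrays against 3.88 and 4.12). A probe set of H19 and Mir675, a microRNA gene inside it, differed by 1.66 (6.44 and 6.41 in EBF1 cells against 4.87 and 4.65 in Pax5 cells), on the same side as the other H19 probe set. The groups did not overlap on any of these probe sets.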
